A study of Mus musculus with 10 samples.

Results

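De novo lipogenesis is the making of fatty acids from carbohydrate carbon, and the members described here were 10 genes of this route, namely Fasn, Acaca, Acacb, Acly, Scd1, Scd2, Me1, Srebf1, Mlxipl and Thrsp. They were chosen by name, as enzymes and regulators of the route, from 54347 gene records of a poly A RNA-Seq table, and each of the 10 names matched 1 record. All 10 had enough counts to be tested, among 13732 genes tested in all. RNA came from interscapular brown adipose tissue (iBAT), the thermogenic fat depot between the shoulder blades, of 10 mice on the C57BL/6N background. All 10 mice were 12 weeks old and spent 24 h at 4 °C. The ΔGm15551 group (5 mice) carried a CRISPR/Cas9 deletion that removes exon 1 of Gm15551, a lncRNA gene, and was not limited to a cell type, and the other 5 mice were wild type, described in the series as litter mates. The whole depot was sequenced, the knockout line comes from 1 deletion allele, and the comparison asks whether loss of the lncRNA altered the iBAT transcriptome in the cold.

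In lipogenesis, citrate leaves the mitochondrion and is split to acetyl-CoA, acetyl-CoA is carboxylated to malonyl-CoA, and fatty acid synthase joins these units into palmitate at the expense of NADPH. Desaturases then place a double bond in the chain. Transcription of these genes is known to be driven by SREBP-1c and ChREBP in response to insulin and glucose, and in brown fat exposed to cold the route is known to run alongside fatty acid burning.

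Library totals lay between 9680976 and 15771170 counts per mouse. Gm15551 had 0 counts in all 5 ΔGm15551 mice and 0 to 7 counts in the wild type mice, of which mouse 7 had none, so the labels could be checked only weakly by this gene. The 8 brown adipocyte markers were counted in every mouse and took 1.15% to 1.56% of counts in ΔGm15551 and 1.14% to 1.49% in wild type, and Ucp1, the uncoupling protein of brown fat, lay between 5747 and 10990 CPM (counts relative to the library total, scaled by TMM). Liver markers, which would be high in the other main lipogenic organ, stayed at or under 0.000305% of counts. The 10 skeletal muscle markers stood apart in ΔGm15551 mice 1 and 4 and wild type mice 5 and 7, with 0.0734%, 0.158%, 0.0228% and 0.263% of counts, against at most 0.00615% in the other 6. Wild type mice 5, 6 and 7 came from a higher series of mouse numbers that held no ΔGm15551 mouse, so for them series and genotype cannot be told apart.

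No difference between ΔGm15551 and wild type iBAT was detected for any of the 10 lipogenic genes. By edgeR's quasi-likelihood test 0 members passed an adjusted p of 0.05, as did 0 of the 13732 genes (0%), and 0 members passed at an unadjusted p under 0.05, where 219 genes did (1.59%). DESeq2 called 0 members after adjustment and 1, Srebf1, at an unadjusted p under 0.05 (228 of all genes, 1.66%). In 0 members did the 2 groups of mice separate without overlap, as against 44 of all genes (0.32%). Of the 10 fold changes (log2FC, ΔGm15551 minus wild type), 4 were positive (49.7% of all genes) and 6 negative, with a median of -0.05, beside -0.00 over all genes tested. Single mice moved this tally. It was 1 positive and 9 negative without ΔGm15551 mouse 7 (median -0.17) and 2 and 8 without wild type mouse 2 (median -0.15). In the other direction it was 6 and 4 without wild type mouse 6 (median 0.09). The 95% confidence interval of the log2FC lay between -1 and 1 for 9 of the 10 (90.2% of all genes) and between -0.5 and 0.5 for 1 of the 10 (55.2% of all genes). Against wild type mice 2 and 3 alone, the wild type mice of the same number series as the 5 ΔGm15551 mice, 7 were positive and 3 negative (median 0.20), from -0.45 for Scd1 to 0.72 for Acly, and again 0 members were called. Because whole tissue was sequenced, fewer cells of a type and less RNA per cell cannot be told apart in any of these values.

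**Figure D1:**
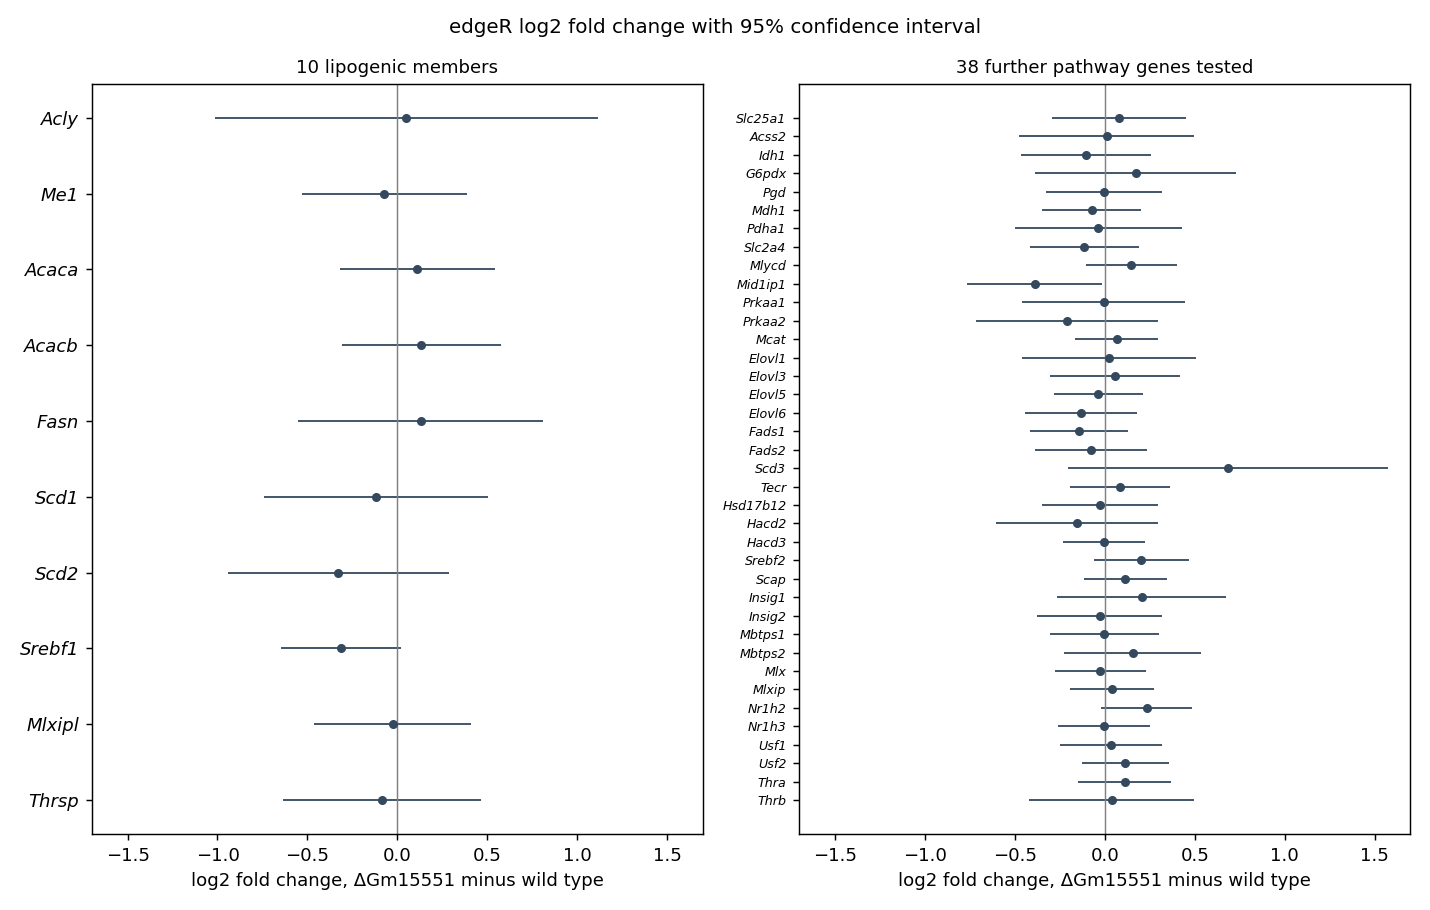
Log2 fold change of each gene (horizontal axis, ΔGm15551 minus wild type, edgeR) with its 95% confidence interval for the 10 members on the left and 38 further genes of the pathway on the right. All 10 member intervals cross 0, that of Acly is the widest (-1.01 to 1.11), and on the right only the interval of Mid1ip1 lies below 0.

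Acly (chr11:100476353-100528000, minus strand, GRCm38) encodes ATP citrate lyase, which splits cytosolic citrate to acetyl-CoA. Its level in ΔGm15551 mice 1, 2, 4, 5 and 7 was 282, 480, 485, 635 and 1811 CPM. In wild type mice 2, 3, 5, 6 and 7 it was 387, 508, 744, 1234 and 692 CPM. The ΔGm15551 group held both the lowest and the highest of the 10 mice, so its range enclosed that of wild type. The 5 ΔGm15551 mice averaged 739 ± 612 CPM and the 5 wild type mice 713 ± 325 CPM (SD), a log2FC of 0.05 (SE 0.48, 95% interval -1.01 to 1.11, edgeR unadjusted p = 0.918). The highest mouse stood 6.42-fold above the lowest. Within genotype, the SD of log2 CPM for Acly (0.83) was larger than that of 97.5% of all genes tested. The sign of the fold change depended on single mice, the log2FC being -0.60 without ΔGm15551 mouse 7, -0.11 without wild type mouse 2, -0.049 without wild type mouse 3 and 0.34 without wild type mouse 6.

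Me1 (chr9:86581371-86695953, minus strand) encodes cytosolic malic enzyme, which returns malate to pyruvate and yields NADPH for the synthase. It measured 355, 493, 481, 436 and 583 CPM in ΔGm15551 mice 1, 2, 4, 5 and 7. The wild type mice 2, 3, 5, 6 and 7 gave 290, 569, 459, 721 and 429 CPM. Wild type mice held both ends of the range, with all 5 ΔGm15551 mice between them. The log2FC was -0.07 (SE 0.21, 95% interval -0.53 to 0.39, unadjusted p = 0.738), and its sign turned on single mice, being 0.10 without wild type mouse 6 and 0.013 without ΔGm15551 mouse 1. Without wild type mice 5, 6 and 7 together it was 0.13.

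Acaca (chr11:84129672-84401651, plus strand) and Acacb (chr5:114146535-114250761, plus strand) encode both acetyl-CoA carboxylases. The Acaca enzyme is cytosolic and feeds malonyl-CoA to synthesis, while that of Acacb sits at the mitochondrion, where malonyl-CoA restrains the entry of fatty acids. Acaca was at 590, 842, 972, 1032 and 1385 CPM in ΔGm15551 mice 1, 2, 4, 5 and 7, and at 725, 908, 908, 1122 and 805 CPM in wild type mice 2, 3, 5, 6 and 7. ΔGm15551 mouse 1 was again the lowest and mouse 7 the highest of all 10, and the difference was small beside that spread (log2FC 0.11, SE 0.20, 95% interval -0.32 to 0.54, unadjusted p = 0.592). Without ΔGm15551 mouse 7 the sign turned (-0.058), and without ΔGm15551 mouse 1, or without wild type mice 5, 6 and 7, the value was 0.24.

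Acacb was at 948, 2024, 1760, 1685 and 1722 CPM in ΔGm15551 mice 1, 2, 4, 5 and 7, and at 1386, 1531, 1650, 1851 and 1006 CPM in wild type mice 2, 3, 5, 6 and 7. Here 1 mouse of each genotype, ΔGm15551 mouse 1 and wild type mouse 7, lay well below the other 8, and the groups overlapped (log2FC 0.13, SE 0.20, 95% interval -0.31 to 0.57, unadjusted p = 0.528). Leaving out wild type mouse 7 brought it to 0.02 and leaving out ΔGm15551 mouse 1 to 0.28. The log2 ratio of Acacb to Acaca within a mouse was positive in all 10, averaging 0.77 ± 0.34 over the ΔGm15551 mice and 0.72 ± 0.24 over the wild type mice (SD, n = 5). This ratio is of CPM and is not corrected for length.

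Fasn (chr11:120805846-120824547, minus strand) encodes fatty acid synthase, the multi-domain enzyme that assembles palmitate. Its level was 3407, 8370, 6764, 7740 and 13247 CPM in ΔGm15551 mice 1, 2, 4, 5 and 7. In wild type mice 2, 3, 5, 6 and 7 it was 4467, 6846, 7422, 11504 and 5894 CPM. Both the lowest and the highest mouse were ΔGm15551, 3.89-fold apart, with wild type mouse 6 next to the top and wild type mouse 2 next to the bottom. The 5 ΔGm15551 mice averaged 7906 ± 3546 CPM and the 5 wild type mice 7227 ± 2640 CPM (SD), with a log2FC of 0.13 (SE 0.32, 95% interval -0.55 to 0.81, unadjusted p = 0.688). It was -0.14 without ΔGm15551 mouse 7 and -0.00 without wild type mouse 2, and in the other direction 0.32 without ΔGm15551 mouse 1, 0.36 without wild type mouse 6 and 0.48 without wild type mice 5, 6 and 7 (unadjusted p = 0.276).

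Scd1 (chr19:44394455-44407879, minus strand) and Scd2 (chr19:44293674-44306864, plus strand) are neighbouring genes for stearoyl-CoA desaturases, which turn saturated into monounsaturated fatty acids. Scd1 was at 8457, 13414, 15313, 10506 and 10231 CPM in ΔGm15551 mice 1, 2, 4, 5 and 7, and at 9370, 22355, 12624, 12512 and 6016 CPM in wild type mice 2, 3, 5, 6 and 7. Wild type mice gave both extremes, and ΔGm15551 mouse 7, the highest for Fasn, was not high for Scd1. The log2FC was -0.12 (SE 0.29, 95% interval -0.74 to 0.51, unadjusted p = 0.688), and without wild type mouse 3 it was 0.19.

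Scd2 was at 118, 289, 290, 207 and 410 CPM in ΔGm15551 mice 1, 2, 4, 5 and 7, and at 225, 402, 335, 438 and 249 CPM in wild type mice 2, 3, 5, 6 and 7. Mice 1 and 5 of the ΔGm15551 group lay below all wild type mice and the other 3 lay among them. Scd2 had the most negative log2FC of the members, -0.33, which did not pass the test (SE 0.29, 95% interval -0.94 to 0.29, unadjusted p = 0.271). It was -0.14 without ΔGm15551 mouse 1, -0.21 without wild type mouse 6 and -0.55 without ΔGm15551 mouse 7.

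Srebf1 (chr11:60199089-60222581, minus strand) encodes SREBP-1, a membrane-bound factor that is cleaved before it activates lipogenic genes; gene counts do not separate its a and c forms. Its level was 232, 184, 240, 235 and 306 CPM in ΔGm15551 mice 1, 2, 4, 5 and 7. In wild type mice 2, 3, 5, 6 and 7 it was 279.2, 280.1, 396, 270.5 and 260.6 CPM. Of the ΔGm15551 mice, 4 of 5 lay below every wild type mouse and mouse 7 lay above all but wild type mouse 5. Means were 239 ± 43.7 CPM and 297 ± 55.7 CPM (SD, n = 5 each). The log2FC of -0.31 (SE 0.16, 95% interval -0.65 to 0.02) had the smallest unadjusted p of the members, 0.0652 in edgeR, with an adjusted p of 0.99981. DESeq2 put the unadjusted p at 0.0460 (adjusted 0.99997). The value was -0.19 without wild type mouse 5 (unadjusted p = 0.216) and -0.42 without ΔGm15551 mouse 7 (unadjusted p = 0.0183), and against wild type mice 2 and 3 alone it was -0.22 (unadjusted p = 0.268).

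Mlxipl (chr5:135089890-135138382, plus strand) encodes ChREBP, the glucose-sensing partner of Mlx. Gene counts pool its 10 annotated transcripts and do not separate forms of the protein. Mlxipl was at 314, 224, 265, 393 and 464 CPM in ΔGm15551 mice 1, 2, 4, 5 and 7, and at 295, 268, 346, 324 and 457 CPM in wild type mice 2, 3, 5, 6 and 7. The 2 groups covered nearly the same range, each with its mouse 7 on top. The log2FC of -0.03 (SE 0.20, unadjusted p = 0.898) had a 95% interval of -0.46 to 0.41, and Mlxipl was the member bounded within -0.5 and 0.5. The value was positive without ΔGm15551 mouse 2 (0.086), ΔGm15551 mouse 4 (0.044), wild type mouse 7 (0.11) or wild type mice 5, 6 and 7 together (0.24).

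Thrsp (chr7:97412938-97417730, minus strand) encodes Spot 14, a small thyroid hormone responsive protein tied to fatty acid synthesis. It was at 953, 1140, 954, 1788 and 1904 CPM in ΔGm15551 mice 1, 2, 4, 5 and 7, and at 997, 991, 1398, 2021 and 1746 CPM in wild type mice 2, 3, 5, 6 and 7. Within both genotypes the mice fell into a set at or below 1140 CPM and a set at or above 1398 CPM, and both sets held mice of both genotypes. The log2FC was -0.09 (SE 0.26, 95% interval -0.64 to 0.46, unadjusted p = 0.742). Its sign too turned on single mice, with 0.070 without wild type mouse 6 and 0.016 without ΔGm15551 mouse 1 or mouse 4, and against wild type mice 2 and 3 alone it was 0.44.

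**Figure D2:**
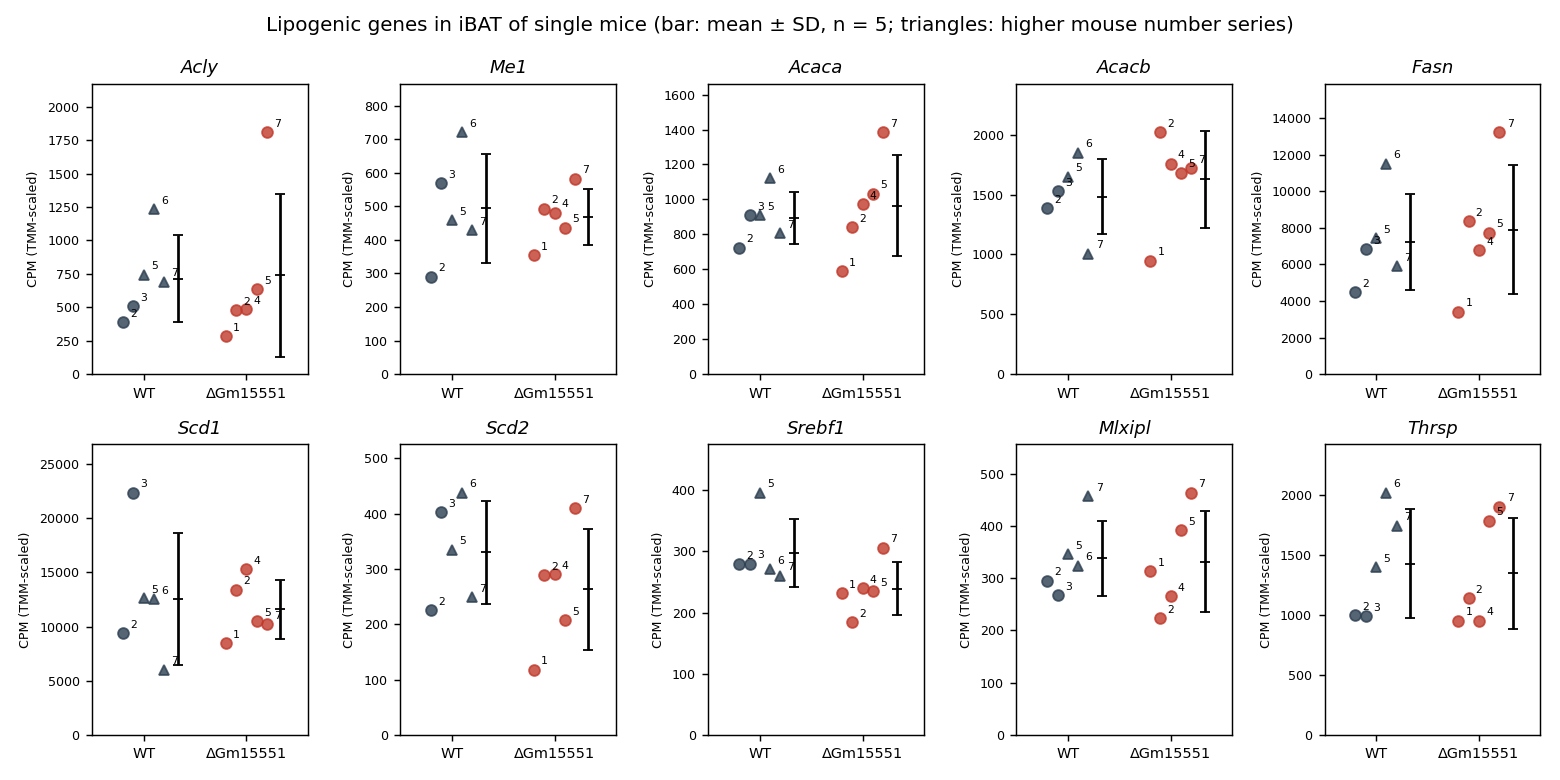
Level of each member in CPM (vertical axis, from 0) in 5 wild type (dark) and 5 ΔGm15551 mice (red), with replicate numbers beside the points, black bars for mean ± SD, and triangles for wild type mice 5, 6 and 7. The groups overlap in all 10 panels, and ΔGm15551 mouse 7 stands above the others for Acly at 1811 CPM.

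The median over the 10 members of the SD of log2 CPM within genotype was 0.43, beside 0.27 over all genes tested and 0.23 over 38 further genes of the pathway. Together the members took 1.59% to 2.98% of all counts in ΔGm15551 mice and 1.77% to 3.33% in wild type mice. ΔGm15551 mouse 1 was among the 3 lowest mice for 9 of the 10 members, all but Mlxipl, and the lowest for 6. At the other end, ΔGm15551 mouse 7 was among the 3 highest for 8 members, and wild type mouse 6 for 7. Mice of both genotypes were thus found at both ends, since wild type mouse 2 was among the 3 lowest for 7 members.

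Which members shared that order was asked by correlating each with Fasn across the 10 mice, on log2 CPM. Acaca had the highest correlation (r = 0.94, rho = 0.83, permutation p = 0.00014), with Acly next (r = 0.90, rho = 0.72, permutation p = 0.00099). Me1 (r = 0.84, rho = 0.83, permutation p = 0.0033) and Scd2 (r = 0.83, rho = 0.68, permutation p = 0.00273) came after them. Acacb (r = 0.76, rho = 0.79, permutation p = 0.0132) and Thrsp (r = 0.69, rho = 0.76, permutation p = 0.0263) had lower values. The lowest were Scd1 (r = 0.30, rho = 0.36, permutation p = 0.392), Mlxipl (r = 0.23, rho = 0.25, permutation p = 0.516) and Srebf1 (r = 0.18, rho = 0.21, permutation p = 0.637).

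At an unadjusted p under 0.05 and with a positive r stood 6 of the 9 members, beside 1047 of all genes (7.63%). Benjamini-Hochberg over the 9 relations left the same 6 past 0.05, against 5 by rank (not Scd2, adjusted p = 0.0513) and 5 with library totals in place of TMM (not Thrsp, adjusted p = 0.0651). Over the relations of Fasn with all 13731 other genes tested, 0 members and 0 genes passed, with adjusted p-values of 0.137 for Acaca, 0.220 for Acly, 0.268 for Me1 and Scd2, 0.320 for Acacb and 0.327 for Thrsp, and of 0.641 to 0.807 for the other 3. Of these genes 610 (4.44%) had an r at least as high as that of Thrsp. The 2 mice farthest from the median of Fasn were ΔGm15551 mice 1 and 7. Without them, in 8 mice, r was 0.89 for Me1, 0.84 for Acaca, 0.75 for Acly, 0.64 for Acacb, 0.61 for Scd2 and 0.54 for Thrsp, and 0 of the 9 relations passed after adjustment (0.0636 for Me1 and Acaca, the lowest), a test with fewer mice and a narrower range of Fasn. Thus the 6 calls were not kept without those 2 mice, while the r of Me1 was no lower and those of the other 5 fell. Without ΔGm15551 mouse 1 alone, 3 of the 9 passed (Acaca, Acly and Me1). Thrsp also missed 0.05 without any 1 of ΔGm15551 mice 5 and 7 or wild type mice 2, 5 and 6 (adjusted p from 0.0534 to 0.121). In the 7 mice of the lower number series r was 0.94 for Acaca, 0.90 for Acly, 0.81 for Acacb, 0.80 for Me1, 0.80 for Scd2 and 0.73 for Thrsp, but 2 of the 9 relations passed after adjustment (Acaca and Acly), the adjusted p being 0.0564 for Me1, Acacb and Scd2 and 0.0902 for Thrsp. The higher series held too few mice for a value, and all its mice were wild type. Fasn and the other genes share libraries and scaling in these relations.

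**Figure D3:**
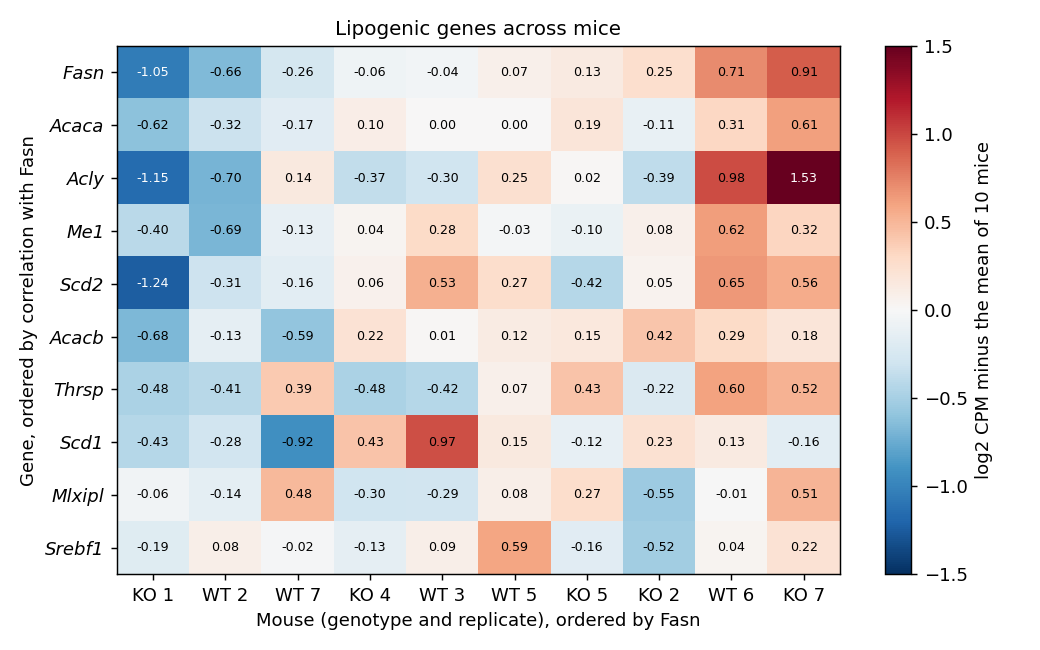
Each cell gives the log2 CPM of a member (vertical axis, ordered by correlation with Fasn) in a mouse (horizontal axis, ordered by Fasn; KO is ΔGm15551, WT is wild type) minus the mean of the 10 mice, on a blue to red scale. The upper genes run from blue in ΔGm15551 mouse 1 (Fasn -1.05) to red in ΔGm15551 mouse 7 (Fasn 0.91, Acly 1.53), while Scd1, Mlxipl and Srebf1 at the bottom do not keep this order.

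**Figure D4:**
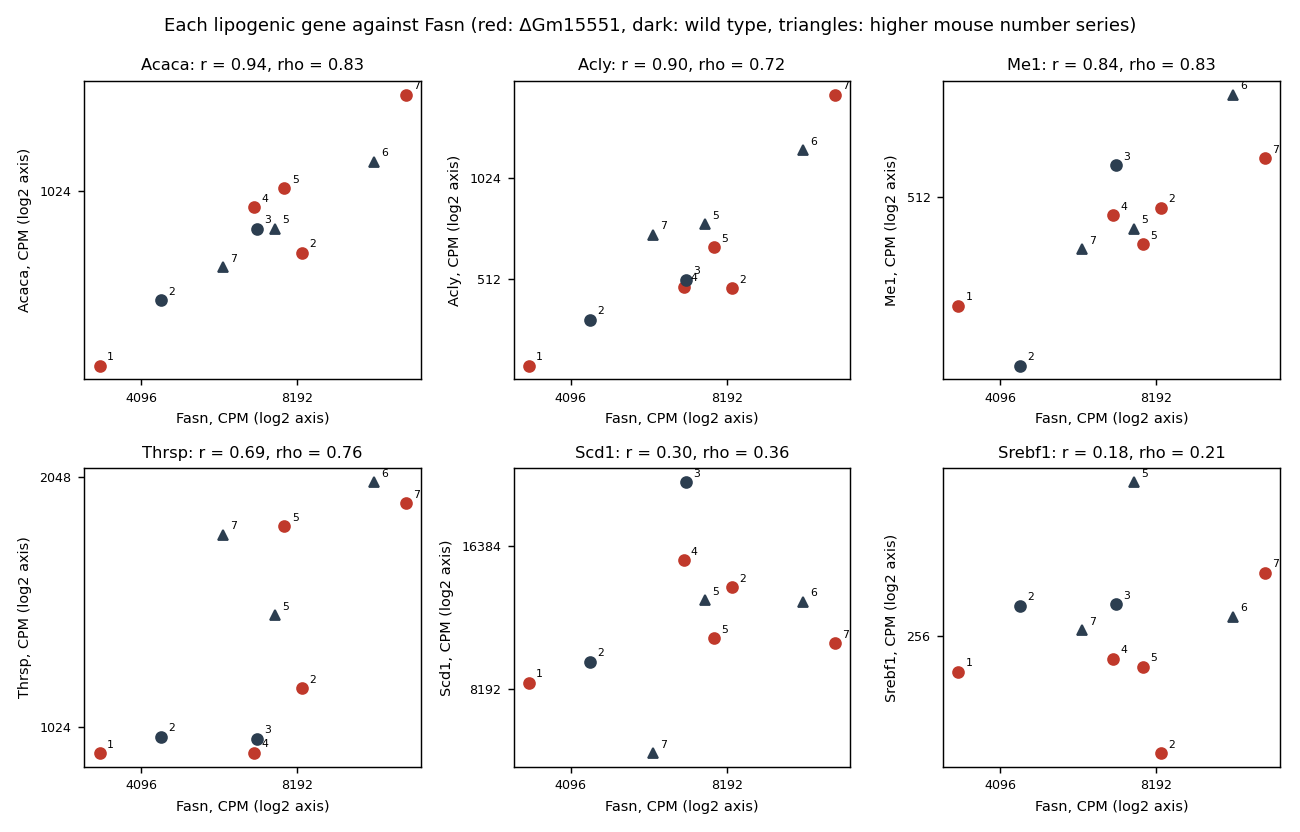
Levels of 6 members (vertical axes) against Fasn (horizontal axes), in CPM on log2 axes, with 1 point per mouse (red ΔGm15551, dark wild type, triangles for wild type mice 5, 6 and 7). Points for Acaca and Acly lie along a line with both genotypes mixed, while those for Scd1 and Srebf1 scatter.

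Among all 45 pairs of members r had a median of 0.49, 40 pairs were positive and 13 exceeded 0.7. The most negative pair was Scd1 with Mlxipl (r = -0.64, rho = -0.61), and Thrsp was closer to Mlxipl (r = 0.74) than to Srebf1 (r = 0.25). These pairs are a description over the same 10 mice, without a test. The log2 ratio of Scd1 to Scd2 ran from 4.59 in wild type mouse 7 to 6.17 in ΔGm15551 mouse 1, so these neighbouring desaturase genes did not hold a fixed proportion.

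Of the 10 library measures set beside Fasn, 2 passed Benjamini-Hochberg over the 10. The summed share of counts on 5 macrophage markers, all 5 counted in every mouse, fell as Fasn rose (r = -0.83, rho = -0.65, permutation p = 0.00261, adjusted p = 0.0233), and so did that of 4 endothelial markers, all 4 counted in every mouse (r = -0.79, rho = -0.77, permutation p = 0.00466, adjusted p = 0.0233). The macrophage share was 0.00331% to 0.00626% of counts in ΔGm15551 and 0.00376% to 0.00703% in wild type, and the endothelial share 0.0722% to 0.123% and 0.0643% to 0.111%. Without ΔGm15551 mice 1 and 7, in 8 mice, r was -0.72 (exact permutation p = 0.0576) and -0.74 (exact permutation p = 0.0250), and in the 7 mice of the lower number series it was -0.87 and -0.78. By rank, neither measure passed after adjustment (0.123 and 0.101). The muscle share had r = -0.65 (rho = -0.71, permutation p = 0.0402, adjusted p = 0.101), the TMM factor r = -0.68 (rho = -0.55, permutation p = 0.0304, adjusted p = 0.101) and the library total r = 0.58 (rho = 0.70, permutation p = 0.0732, adjusted p = 0.146). Without ΔGm15551 mice 1 and 7 these were -0.53, -0.57 and 0.86 (exact permutation p = 0.180, 0.130 and 0.00737). The part of these measures in the shared order of the lipogenic genes was not tested.

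A RefSeq promoter, 250 bases before and 50 after an annotated start on GRCm38.p6, was found for 8 of the 10 members (12 promoters), and Scd1 and Scd2 were without one in the table. The promoters of Acly, Fasn and Thrsp are shown because these 3 genes correlated across mice (r of Acly with Thrsp 0.84) while their start regions differ in the placing of the CCAAT box, a core promoter motif bound by NF-Y. They were picked from these same data. Acaca had a higher r with Fasn (0.94) than Acly (0.90) and Thrsp (0.69), but is not shown, and its only window held no CCAAT. Capitals mark CCAAT read on either strand, so that ATTGG is the same motif on the other strand.
Acly, minus strand, chr11:100527951-100528250: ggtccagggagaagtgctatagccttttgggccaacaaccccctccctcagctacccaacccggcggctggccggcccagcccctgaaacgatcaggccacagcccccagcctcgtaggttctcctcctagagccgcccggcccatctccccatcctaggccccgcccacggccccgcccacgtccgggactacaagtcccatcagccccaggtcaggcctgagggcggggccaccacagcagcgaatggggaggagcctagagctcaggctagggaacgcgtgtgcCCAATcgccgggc
Fasn, minus strand, chr11:120824498-120824797: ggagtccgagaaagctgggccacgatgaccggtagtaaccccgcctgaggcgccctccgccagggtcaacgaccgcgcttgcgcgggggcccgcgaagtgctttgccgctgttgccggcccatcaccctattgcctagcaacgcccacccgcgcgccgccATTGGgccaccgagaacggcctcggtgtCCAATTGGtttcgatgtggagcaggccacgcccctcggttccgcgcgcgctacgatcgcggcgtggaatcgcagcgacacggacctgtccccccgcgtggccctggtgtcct
Thrsp, minus strand, chr7:97417501-97417800: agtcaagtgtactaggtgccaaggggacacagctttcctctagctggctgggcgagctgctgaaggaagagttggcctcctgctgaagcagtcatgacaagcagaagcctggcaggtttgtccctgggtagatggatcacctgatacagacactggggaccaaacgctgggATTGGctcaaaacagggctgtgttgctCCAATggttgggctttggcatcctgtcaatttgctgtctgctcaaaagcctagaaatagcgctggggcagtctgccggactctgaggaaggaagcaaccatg
In Fasn the motif began 90, 62 and 59 bases before the start, the latter pair overlapping on opposite strands, and in Thrsp it began 79 and 52 bases before the start. In Acly the single match began 38 bases into the transcript.

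Over the 12 promoters, CCAAT occurred in 8, belonging to 7 of the 8 genes, the exception being Acaca, and in 37.4% of all 32851 promoters of that length. The only windows of Acaca (chr11:84195188-84195487) and Acacb (chr5:114165268-114165567) lie inside their genes, which begin at 84129672 and 114146535. For these genes the counts thus describe an internal start, and the promoter at the beginning of the gene was not searched. The ChREBP-type E-box CACGTG occurred in 1 of the 12 (7.15% of all promoters), at Mlxipl. A sterol response element-like sequence, TCACNCCAC, also occurred in 1, at the other Mlxipl promoter (1.24% of all). The GC box GGGCGG occurred in 5, belonging to 4 genes (35.7% of all). Both strands were searched for each motif, and these counts describe letters in the window only.

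Levels between genes were set side by side as RPKM, that is CPM per kilobase of merged exons. Scd1 was the highest member at 2469 ± 918 RPKM (SD over 10 mice), place 22 among 13726 genes with a length. Fasn followed at 691 ± 271 RPKM and Thrsp at 635 ± 199 RPKM, in an order that held in 6 of 10 mice only. Acacb was at 162 ± 36.3, Acly at 137 ± 87.6 and Me1 at 125 ± 31.7 RPKM. The lowest 4 were Mlxipl at 60.5 ± 14.6, Acaca at 54.4 ± 12.9, Scd2 at 54.2 ± 18.6 and Srebf1 at 47.6 ± 9.98 RPKM, with Srebf1 at place 821. Of the 9 pairs of neighbours in this order, the upper gene was higher in every mouse for 3, Scd1 over Fasn, Thrsp over Acacb and Me1 over Mlxipl, and the other 6 did not keep their order in all mice. With the longest transcript as the length, Thrsp moved above Fasn, Acaca above Mlxipl and Srebf1 above Scd2.

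**Figure D5:**
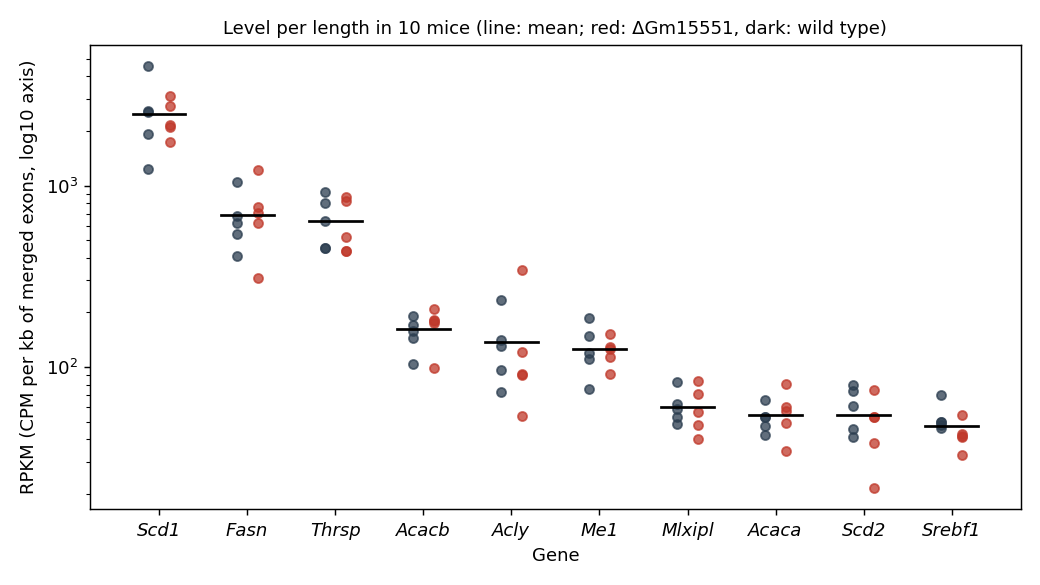
Level per length of each member (vertical axis, RPKM on a log10 axis) in each of 10 mice (red ΔGm15551, dark wild type), with a line for the mean of 10 mice. Scd1 lies above all other members in every mouse, at 1230 to 4570 RPKM, and Srebf1 has the lowest mean, 47.6 RPKM.

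Some members share sequence with other genes, which limits how surely their reads can be placed. Of all 31-base words of the Acaca transcripts, 33.5% also occurred in another gene, mostly the pseudogene Gm5182, which had at most 27 counts beside 7839 to 18577 for Acaca. For Me1 the share was 36.9%, mostly with Gm7049, which had at most 1 count. Scd1 and Scd2 shared 8.18% and 6.81% of their words with other genes, most often Scd3, which had 2 to 24 counts. Srebf1 overlaps exons of Rai1 on the opposite strand by 109 bp (241 to 432 counts for Rai1 beside 2538 to 5536 for Srebf1), and Mlxipl overlaps the antisense gene Gm43500 by 235 bp, so without known strandedness these reads cannot be told apart. Acly, Acacb and Fasn shared no such word.

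The wider pathway, a list of 39 genes of substrate supply, malonyl-CoA turnover, chain elongation and desaturation, and transcriptional control, likewise gave no call. Of its 38 tested genes (Scd4 had 1 to 4 counts per mouse and was not tested), 19 had a positive and 19 a negative log2FC, 0 passed an adjusted p of 0.05, and the median was 0.00. At an unadjusted p under 0.05, 0 were higher and 1 lower in ΔGm15551 (0.961% and 0.634% of all genes). This gene was Mid1ip1, whose product is a paralogue and partner of Spot 14 that promotes the assembly of acetyl-CoA carboxylase into filaments. Mid1ip1 was at 28.0, 44.8, 42.8, 34.8 and 59.4 CPM in ΔGm15551 mice 1, 2, 4, 5 and 7, and at 44.0, 55.3, 58.5, 57.6 and 59.4 CPM in wild type mice 2, 3, 5, 6 and 7. ΔGm15551 mice 1, 4 and 5 lay below all wild type mice, and mouse 7 lay with the highest of them. Its log2FC was -0.39 (SE 0.17, 95% interval -0.76 to -0.02, unadjusted p = 0.0419, adjusted p = 0.99981 in edgeR), and the unadjusted p went above 0.05 on leaving out any 1 of ΔGm15551 mice 1, 4 and 5 or wild type mice 3, 5, 6 and 7, reaching 0.0976 at most. The log2FC ran from -0.28 without ΔGm15551 mouse 1 to -0.55 without ΔGm15551 mouse 7 (unadjusted p = 0.00378). Against wild type mice 2 and 3 alone the log2FC was -0.24 (unadjusted p = 0.342), and since the higher number series held wild type mice only, series and genotype cannot be fully told apart.

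By group, 3 of 8 supply and NADPH genes, 2 of 5 malonyl-CoA genes, 4 of 11 elongation and desaturation genes and 10 of 14 regulators had a positive log2FC, none past an adjusted p of 0.05 and, but for Mid1ip1, none at an unadjusted p under 0.05. Across the 10 mice, 10 of the 38 had a positive r with Fasn at an unadjusted p under 0.05 (7.63% of all genes), and 0 passed after adjustment over all 13731 genes. The 5 of highest r were chosen for naming after their values were seen. Acss2, which activates acetate to acetyl-CoA, had r = 0.94 (rho = 0.96, permutation p = 0.0001) and kept r = 0.96 without ΔGm15551 mice 1 and 7. Pgd, an NADPH-yielding enzyme of the pentose phosphate pathway, had r = 0.93 (rho = 0.88, permutation p = 0.00016) and r = 0.78 without them. For Tecr of chain elongation, Pdha1 of pyruvate dehydrogenase and Mlx, the partner of ChREBP, r was 0.85, 0.83 and 0.82 (rho = 0.82, 0.82 and 0.70, permutation p = 0.00179, 0.00236 and 0.00522), and 0.90, 0.61 and 0.63 without them. In the 7 mice of the lower number series r of these 5 was 0.96, 0.93, 0.81, 0.86 and 0.82. Adjusted over all genes, the p of these 5 ran from 0.137 to 0.273.

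Among 8035 further genes at 10 CPM or more, those whose log2 CPM most resembled the mean of the centred members over the 10 mice were Ank (r = 0.95), Aacs (r = 0.95), Sorl1 (r = 0.94), C1rl (r = 0.94) and Acot11 (r = 0.94). The most opposed were Tubgcp6 (r = -0.96), Jak2 (r = -0.93), Rnf213 (r = -0.92), Nid1 (r = -0.91) and Trim25 (r = -0.90). These are ranks of likeness out of many genes in 10 mice, given without a test. Acot11, an acyl-CoA thioesterase abundant in brown fat, ran from 425 to 1083 CPM, and Aacs, which activates acetoacetate for lipid synthesis, from 135 to 393 CPM.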

How the data were processed

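Poly A RNA of iBAT from 10 mice was sequenced in paired-end reads. Per the labels and methods, the authors used cutadapt for read quality and salmon for quantification, with GENCODE M22 (GRCm38) as transcriptome, alone or joined with RNAcentral; versions and strandedness are not given in the sources used here. The deposited values were estimated counts (expected counts) per gene, already whole numbers, not scaled for depth, with 1 column per mouse. The methods name no batch, litter or sex term.

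Tests used edgeR 4.0.16 under R 4.3.3: filterByExpr (minimum count 10, minimum total 15), TMM scaling, and a robust quasi-likelihood test on genotype over all 10 mice, with Benjamini-Hochberg adjustment over the 13732 genes kept and a threshold of 0.05. SE and 95% intervals were derived from the F statistic. log2 CPM used a prior count of 2. Correlations used 100000 resamples in 10 mice and all orders in fewer, two-sided (Python 3.11.15, numpy 2.4.6, scipy 1.17.1). Gene positions, lengths and 31-base words came from GENCODE M21 on GRCm38, and promoters from RefSeq on GRCm38.p6. The edgeR fit and the correlation test were tested on simulated data. Figures were drawn with matplotlib 3.10.9.

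The members, pathway genes and markers were chosen with earlier results of these data known. Names were given to the 10 members, Gm15551, Ucp1, Adipoq and Lep, to pathway genes at an unadjusted p under 0.05 in the edgeR test over all 10 mice, and to the 5 genes of highest and the 5 of lowest r with the members. Outside this rule, Acss2, Pgd, Tecr, Pdha1 and Mlx were named for their r with Fasn after it was seen, and Scd4 as the pathway gene not tested. Retn, Agt and Nrip1 were named as the white adipocyte markers tested beside Lep, and Lyz2 and Csf1r as the macrophage markers of highest level. Scd3, Rai1, Gm5182, Gm7049 and Gm43500 were named for sequence shared or overlapping with a member. Adipoq averaged 381 ± 41.9 CPM over the 5 ΔGm15551 mice and 330 ± 36.0 CPM over the 5 wild type mice (SD, log2FC 0.20, unadjusted p = 0.109), and Lep 5.16 ± 2.41 and 11.3 ± 4.27 CPM (log2FC -1.14, unadjusted p = 0.00315, adjusted p = 0.99981, edgeR). The marker lists held 8 brown adipocyte, 6 adipocyte, 5 white adipocyte, 10 muscle, 5 red blood cell, 5 macrophage, 4 endothelial and 3 liver genes; 1 of the 43 tested, Lep, stood at an unadjusted p under 0.05 (1.59% of all genes), and of the other 3 white adipocyte markers tested Retn and Agt had a negative and Nrip1 a positive log2FC (-0.33, -0.25 and 0.33). Alternatives were DESeq2 1.42.0, limma-voom (limma 3.58.1), other scalings and filters, leaving out mice, a replicate block and a muscle covariate. Adjustment of the correlations over all genes was added after seeing the data. The series calls the wild type mice litter mates, but the labels do not say which mice shared a litter or cage. No 2 libraries of a group agreed within counting noise. A depth of 9680976 to 15771170 counts limits precision little for the members, which had 1603 counts or more in every mouse, and more for genes with few counts.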

Additional observations from a re-analysis of the deposited data

Results flagged for a closer look

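A sample far from the other 4 of its group was found in 2 of 22 groups of 5 mice examined (10 members and their summed share of counts, in each genotype), where chance alone flags about 1 in 20 groups, or 1.1 here. Acly in ΔGm15551 mouse 7 was at 1811 CPM, while its 4 group mates lay between 282 and 635 CPM. Srebf1 in wild type mouse 5 was at 396 CPM while its 4 group mates lay between 260.6 and 280.1 CPM. Causes of these 2 values were not tested.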

How the results depend on the processing

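No gene and no member passed an adjusted p of 0.05 under any of the 20 alternatives to the edgeR test, and Acacb, Srebf1 and Mid1ip1 kept their sign in all 20. The cause of the changes below was not tested. The log2FC of Acly was -0.14 with limma-voom and -0.082 with the muscle score as a covariate. At an unadjusted p under 0.05, DESeq2 had 1 member (Srebf1). Without wild type mice 5, 6 and 7, 0 pathway genes stood at an unadjusted p under 0.05, the log2FC was 0.13 for Me1, 0.24 for Mlxipl and 0.44 for Thrsp, and 2 members passed the correlation with Fasn (Acaca and Acly). That number was 0 without ΔGm15551 mice 1 and 7, where r with Fasn was -0.15 for Srebf1 and -0.10 for Mlxipl, and 0 with adjustment over all genes.

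Leaving out each mouse in turn gave 0 to 1 members at an unadjusted p under 0.05 (Srebf1, without ΔGm15551 mouse 7 or wild type mouse 7, beside 1.83% and 2.91% of all genes). It gave 0 to 1 pathway genes at that level, a gene other than Mid1ip1 without ΔGm15551 mouse 1, wild type mouse 5 or wild type mouse 6. Between 3 and 6 members correlated with Fasn when 1 mouse was left out. The log2FC then ran from -0.60 to 0.34 for Acly, from -0.21 to 0.10 for Me1, from -0.058 to 0.24 for Acaca, from 0.02 to 0.28 for Acacb, from -0.14 to 0.36 for Fasn, from -0.30 to 0.19 for Scd1, from -0.55 to -0.14 for Scd2, from -0.18 to 0.11 for Mlxipl and from -0.24 to 0.070 for Thrsp, and the r of Mlxipl with Fasn from -0.072 to 0.39.

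Both genotypes share the replicate numbers 2, 5 and 7. Deviations of same-numbered mice from their group means had correlations of -0.07, 0.05 and -0.39. With the differently numbered wild type mice among these, ΔGm15551 mice 2, 5 and 7 had -0.51 to -0.03, 0.08 to 0.17 and -0.09 to -0.03. No same-numbered value lay above its range, but 3 pairs are too few to exclude a pairing. With the replicate block in these 6 mice, 1 member (Fasn, log2FC 0.71, unadjusted p = 0.0269, beside 2.88% of all genes) and 3 pathway genes stood at an unadjusted p under 0.05, the median log2FC of the members was 0.36, and the log2FC was 0.38 for Me1, 0.34 for Scd1, 0.13 for Scd2 and 0.22 for Thrsp. The same 6 mice without the block gave 1 member (Fasn, beside 4.00% of all genes), 4 pathway genes, a median of 0.32 and log2FCs of 0.36, 0.28, 0.16 and 0.22 for Me1, Scd1, Scd2 and Thrsp. Mid1ip1 had a log2FC of -0.22 there, its least negative value among the 20 alternatives. The pathway genes counted in these 6 mice are not named here. With 5 mice per group and this spread between mice, a difference in Acly of up to 1.11 on the log2 scale lay within the interval.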
